A study of Mus musculus with 8 samples.

Results

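The Toll-like receptor genes of the mouse were examined in CD11b+ cells given a bacterial cell wall polymer. The 10 genes Tlr1 to Tlr9 and Tlr13 were taken by name. All 10 were measured, by 16 probe sets, among the 18193 genes of the arrays. CD11b is the integrin subunit encoded by Itgam and is found on monocytes, macrophages and neutrophils as well as other cells. Cells came from NOD mice, a strain that develops autoimmune diabetes spontaneously, and from NOD.Idd3 mice, congenic animals with another allele at the chromosome 3 diabetes locus Idd3, which includes Il2 and Il21. They were kept for 4 h at 37 °C without stimulus or with peptidoglycan (PGN) at 5 µg/ml, and each of the 4 groups had 2 arrays. The labels used here name no tissue, age or sex. They call the replicates biological but do not say whether each was 1 animal or a pool, so each p-value rests on the spread between these samples.

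Toll-like receptors are membrane proteins that detect microbial molecules and signal through the adaptors MyD88 and TRIF to transcription factors of the NF-kB and IRF families. TLR1, TLR2, TLR4, TLR5 and TLR6 act at the cell surface, where TLR2 pairs with TLR1 or TLR6 to sense bacterial lipopeptides and was described as a receptor for PGN preparations. TLR3, TLR7, TLR8, TLR9 and TLR13 sense nucleic acids in endosomes. Monocytes, macrophages and neutrophils are known for strong Toll-like receptor responses.

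The promoters of the 2 genes that fell with PGN, Tlr5 and Tlr8, and of the trio Tlr1, Tlr6 and Tlr2, whose averaged differences with PGN were positive, are printed to show the sequence before each gene's start. Each is the 250 bases before the RefSeq start in assembly GRCm38.p6, 5′ to 3′ on the gene's strand. Tlr5 lies at chr1:182954538-182954787 on the plus strand. The minus strand holds Tlr8 at chrX:167264330-167264579, Tlr1 at chr5:64933559-64933808, Tlr6 at chr5:64959167-64959416 and Tlr2 at chr3:83841609-83841858. Capitals mark matches, on either strand, to 4 motifs: PU.1 (GAGGAAGT), NF-kB (GGGNNTTCC), AP-1 (TGANTCA) and the interferon response element (GAAANNGAA).
Tlr5: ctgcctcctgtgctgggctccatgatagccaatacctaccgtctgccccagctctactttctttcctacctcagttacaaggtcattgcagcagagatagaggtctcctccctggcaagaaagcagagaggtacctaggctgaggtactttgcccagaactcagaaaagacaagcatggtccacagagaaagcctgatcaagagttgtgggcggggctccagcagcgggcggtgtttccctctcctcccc
Tlr8: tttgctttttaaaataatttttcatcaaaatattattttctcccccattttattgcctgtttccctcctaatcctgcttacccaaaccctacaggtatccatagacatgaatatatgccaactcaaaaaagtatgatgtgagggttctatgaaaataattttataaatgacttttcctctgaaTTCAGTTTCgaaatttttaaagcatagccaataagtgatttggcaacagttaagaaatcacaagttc
Tlr1: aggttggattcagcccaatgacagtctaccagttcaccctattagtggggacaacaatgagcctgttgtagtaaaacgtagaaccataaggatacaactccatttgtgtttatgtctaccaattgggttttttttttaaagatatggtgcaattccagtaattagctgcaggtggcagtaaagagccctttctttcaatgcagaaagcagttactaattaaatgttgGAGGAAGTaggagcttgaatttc
Tlr6: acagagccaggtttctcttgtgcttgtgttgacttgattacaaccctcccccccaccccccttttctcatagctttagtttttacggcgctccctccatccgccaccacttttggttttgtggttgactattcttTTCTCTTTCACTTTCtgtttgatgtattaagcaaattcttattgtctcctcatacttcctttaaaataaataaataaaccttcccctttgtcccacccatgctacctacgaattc
Tlr2: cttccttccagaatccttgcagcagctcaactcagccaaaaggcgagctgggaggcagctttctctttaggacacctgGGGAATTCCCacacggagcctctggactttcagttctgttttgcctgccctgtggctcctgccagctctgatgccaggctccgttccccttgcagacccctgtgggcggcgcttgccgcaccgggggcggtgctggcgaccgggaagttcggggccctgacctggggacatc
The Tlr5 window held none of the 4 motifs. In the Tlr8 window 1 interferon response match began 67 bases before the start, and in the Tlr6 window 2 overlapping ones began 115 and 109 bases before it. The Tlr1 window held 1 PU.1 match 23 bases before the start. The Tlr2 window held 2 overlapping NF-kB matches, 172 and 171 bases before the start. They are the 2 strands of 1 stretch that reads alike on both. Over 32851 RefSeq windows of this length, 2.44% held the PU.1 letters, 4.98% the NF-kB letters, 6.75% the AP-1 letters and 7.13% the interferon response letters. GC content was 31.2% in the Tlr8 window, 39.2% in Tlr1, 42.0% in Tlr6, 55.2% in Tlr5 and 62.8% in Tlr2. The second RefSeq windows of Tlr1 and Tlr6 and the windows of Tlr3 and Tlr13 held no match, while that of Tlr9 had 1 AP-1 match 58 bases before its start. Tlr4 and Tlr7 had no window in the table used. A match is a description of letters and not a binding site.

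Values below are log2 RMA intensities, RMA being a background correction and normalisation of probe sets, and differences are on the same scale. Where several probe sets measure a gene, the one with the highest mean stands for it. Levels of different probe sets are not compared. For orientation, the median gene of an array lay between 6.38 and 6.65, and the 40th percentile between 5.30 and 5.53. Itgam, which defines the sorted cells, was between 7.87 and 9.02 on the 8 arrays, and Lyz2, a lysozyme gene of myeloid cells, averaged 13.99.

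With PGN, Tlr5 and Tlr8 fell. No other Toll-like receptor gene passed the test averaged over both strains in the main fit, which does not pair the replicates. In this test 2 of the 10 genes were called, both lower, against 11.3% of all genes called (4.86% higher and 6.40% lower; limma, Benjamini-Hochberg adjusted p under 0.05). Of the other 8, 5 had a positive difference and 3 a negative one. Limma fits 1 linear model per gene and pools information on the spread across genes. The median difference of the 10 was 0.040, against 0.049 over all genes. The samples were bulk RNA, in which fewer cells of a type and less RNA per cell cannot be told apart.

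The replicate numbers paired the arrays across groups. With the replicate as a block in the limma fit, 6 of the 10 genes were called, against 16.9% of all genes. Tlr1, Tlr6, Tlr7 and Tlr9 were then called higher, beside the lower calls of Tlr5 and Tlr8.

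**Figure D1:**
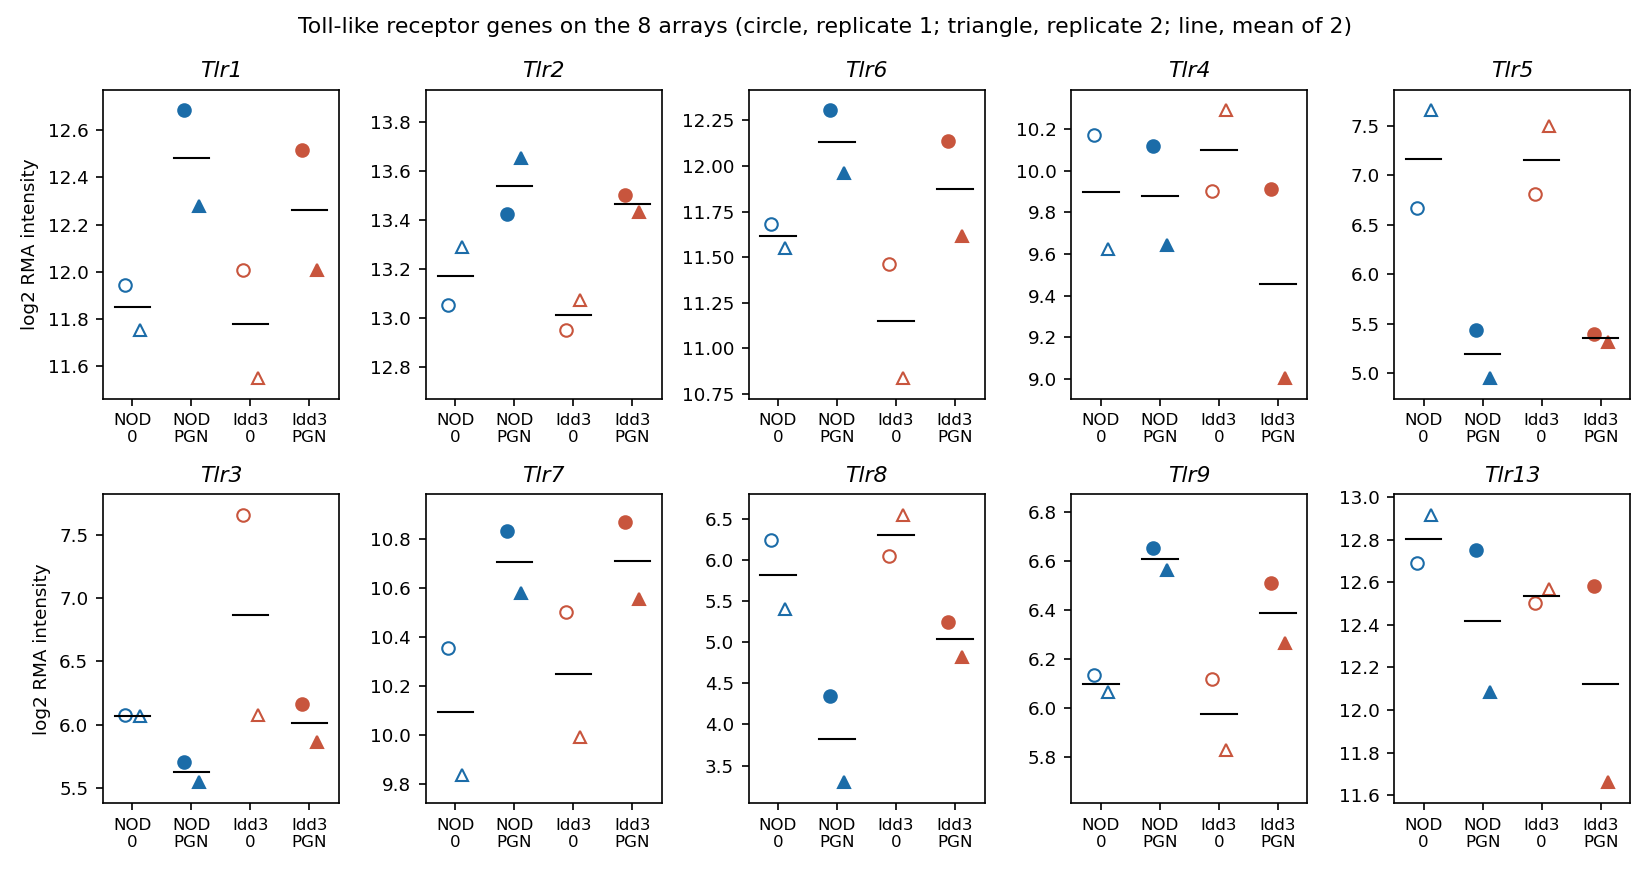
Log2 RMA intensity (vertical axis, its own range in each panel) of each Toll-like receptor gene in the 4 groups (horizontal axis; 0, unstimulated), with 1 point per array and a line at the mean of 2. All 4 PGN arrays lie below all 4 unstimulated arrays for Tlr5 and Tlr8, and above them for Tlr1, Tlr2, Tlr7 and Tlr9.

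Tlr5, the receptor for bacterial flagellin, gave 6.66 and 7.65 on the unstimulated NOD arrays and 5.44 and 4.95 on the NOD arrays with PGN (replicates 1 and 2). In NOD.Idd3 cells it gave 6.81 and 7.49 unstimulated and 5.39 and 5.32 with PGN. Every PGN array was below every unstimulated array. The unstimulated values lay above the median gene and those with PGN near or below the 40th percentile. The averaged difference was -1.88 ± 0.26 (SE; 95% interval -2.46 to -1.30; limma adjusted p = 0.00268). No fold is given, since whether Tlr5 was above background with PGN was not tested. Within matched replicates, the change was -1.22 and -2.70 in NOD and -1.42 and -2.18 in NOD.Idd3, so replicate 2 showed the larger drop in both strains. Tlr5 was called in all 18 alternatives of the averaged comparison, with differences from -2.13 to -1.63.

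Tlr5 also fell in each strain taken alone. In NOD the difference was -1.96 ± 0.36 (limma adjusted p = 0.0232) and in NOD.Idd3 -1.80 ± 0.36 (limma adjusted p = 0.0355). The unstimulated means of the 2 strains, 7.16 ± 0.70 and 7.15 ± 0.48 (SD, n = 2), were nearly equal and their arrays overlapped, as did those with PGN, 5.20 ± 0.34 and 5.35 ± 0.05 (SD, n = 2). The call in NOD was lost without unstimulated replicate 2 or without either PGN array (limma adjusted p from 0.0124 to 0.137 over the alternatives). The call in NOD.Idd3 was lost without any 1 of its 4 arrays, and in a fit with a term for arrays whose names end in RR1 (0.0158 to 0.255).

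Tlr8, an endosomal receptor of the single-stranded RNA sensing group, gave 6.24 and 5.40 on the unstimulated NOD arrays and 4.34 and 3.29 with PGN. In NOD.Idd3 cells the values were 6.05 and 6.55 unstimulated and 5.24 and 4.82 with PGN. The PGN arrays again lay below all unstimulated ones, and all 4 were under the 40th percentile of the genes, the 2 NOD arrays being the lowest. The averaged difference was -1.63 ± 0.28 (95% interval -2.28 to -0.98; limma adjusted p = 0.00791). The deposited values carry no detection call, and whether Tlr8 was above background with PGN was not tested, so its fall is given on the log2 scale of these intensities, with no fold. It was called in the 17 alternatives that keep the gene, from -1.89 to -1.37. A filter at the 40th percentile removes it.

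By strain, the Tlr8 difference passed the test in NOD, at -2.00 ± 0.40 (limma adjusted p = 0.0319), and not in NOD.Idd3, at -1.26 ± 0.40 (limma adjusted p = 0.157, and 0.0709 with the replicate block). The difference between these effects (NOD.Idd3 minus NOD) was itself 0.74 ± 0.57 (95% interval -0.56 to 2.03; limma adjusted p = 1.00), so a different response of Tlr8 in the 2 strains was not shown. In NOD the call was lost without either unstimulated array, without PGN replicate 2, with array weights and in a fit of the NOD arrays alone (limma adjusted p from 0.0119 to 0.148). In NOD.Idd3 the gene was called with the RR1 suffix as a term, at -1.66 (limma adjusted p = 0.0360).

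In the single strains, 2 of the 10 genes were called in NOD, where 3.94% of all genes were, and 1 of 10 in NOD.Idd3, where 3.14% were. With the replicate block the members called were again 2 in NOD, against 8.72% of all genes, and 1 in NOD.Idd3, against 6.63%.

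Tlr1, Tlr2 and Tlr6 encode the partners of the lipopeptide receptors. All of their averaged differences were positive without passing the test in the main fit. Tlr2 gave 13.05 and 13.29 on the unstimulated NOD arrays, 13.42 and 13.65 with PGN, 12.95 and 13.07 in unstimulated NOD.Idd3 cells and 13.50 and 13.43 with PGN. Tlr1 gave, in the same order, 11.95 and 11.75, 12.68 and 12.28, 12.01 and 11.55, and 12.52 and 12.01. For both genes the 4 PGN arrays were all above the 4 unstimulated ones, although for Tlr1 the lowest value with PGN and the highest without both round to 12.01. Tlr6 gave 11.68 and 11.55, 12.31 and 11.96, 11.46 and 10.84, and 12.14 and 11.61, with overlap between unstimulated NOD cells and NOD.Idd3 cells with PGN.

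Within matched replicates the 3 genes were higher with PGN in 4 of 4 comparisons each. This was not particular to them. Tlr7 and Tlr9 were also higher in every matched pair, and Tlr3, Tlr5 and Tlr8 were lower in every pair. The share of all genes with such agreement was not computed. The change was between 0.46 and 0.74 for Tlr1, between 0.36 and 0.55 for Tlr2 and between 0.41 and 0.78 for Tlr6. The averaged difference was 0.56 ± 0.19 for Tlr1 (limma adjusted p = 0.105; with the replicate block 0.0226). For Tlr6 it was 0.62 ± 0.20 (limma adjusted p = 0.0869; with the block 0.0190). For Tlr2 it was 0.41 ± 0.14 (limma adjusted p = 0.115; with the block 0.0729), and Tlr2 passed only with a trend in the variance prior (limma adjusted p = 0.0337). In linear terms these are 1.47-fold, 1.54-fold and 1.33-fold.

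Tlr4, the lipopolysaccharide receptor, did not pass through its highest probe set. That probe set gave 10.17 and 9.63 on the unstimulated NOD arrays, 10.12 and 9.64 with PGN, 9.90 and 10.29 in unstimulated NOD.Idd3 cells and 9.91 and 9.0 with PGN. The groups overlapped, and the averaged difference of -0.33 ± 0.25 (limma adjusted p = 0.455) came mainly from the second NOD.Idd3 pair, which changed by -1.29 against -0.05 to 0.02 in the other pairs.

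The probe sets of Tlr4 did not move together. In a limma fit of all 34945 probe sets, where 11.3% were called, probe set 1442827_at of Tlr4 fell by 1.02 ± 0.18 on the log2 scale (adjusted p = 0.00894). It gave 6.33 and 6.40 on the unstimulated NOD arrays, 5.07 and 4.58 with PGN, 6.36 and 6.47 in unstimulated NOD.Idd3 cells and 6.19 and 5.63 with PGN. In NOD it fell by 1.54 ± 0.26 (limma adjusted p = 0.0163, where 4.01% of probe sets were called), and in NOD.Idd3 the difference was -0.51 (limma adjusted p = 0.410). The difference between these effects (NOD.Idd3 minus NOD) was 1.03 ± 0.37 (limma adjusted p = 1.00). Probe set 1418163_at, at 8.08 to 8.77 over the arrays, differed by -0.06, and 1430695_at stayed between 3.09 and 3.96. Which transcripts these probe sets match was not tested.

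**Figure D2:**
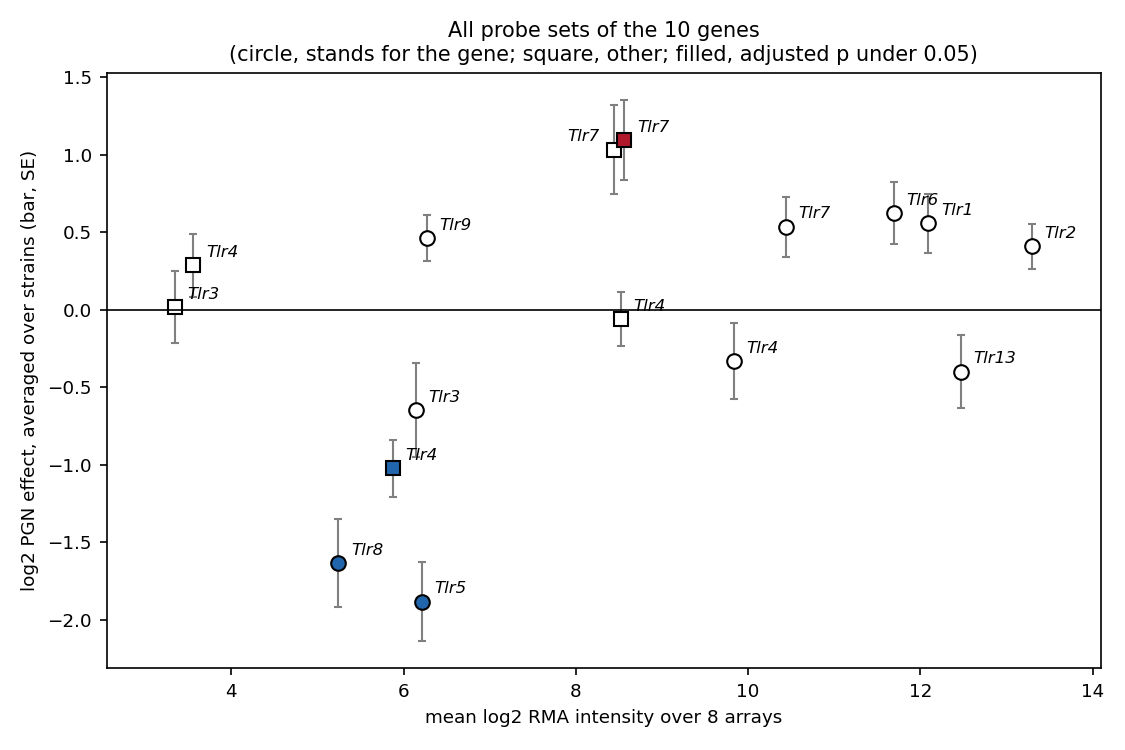
Averaged PGN effect (vertical axis, log2 difference with its SE) against mean log2 RMA intensity over the 8 arrays (horizontal axis) for the 16 probe sets of the 10 genes, whose levels cannot be set against each other. The filled points, with adjusted p under 0.05, are Tlr5, Tlr8 and 1 probe set of Tlr4 below 0 and 1 probe set of Tlr7 above 0.

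Tlr7, an endosomal receptor for single-stranded RNA, had values of 10.36 and 9.84 on the unstimulated NOD arrays, 10.83 and 10.58 with PGN, 10.50 and 9.99 in unstimulated NOD.Idd3 cells and 10.87 and 10.55 with PGN. The PGN arrays were all above the unstimulated ones, and the means of the 2 strains with PGN, 10.70 and 10.71, were the same within their spread. The averaged difference was 0.54 ± 0.19 (limma adjusted p = 0.121; with the replicate block 0.0264). The other probe sets of Tlr7 gave larger differences. In the fit of all probe sets, 1449640_at rose by 1.09 ± 0.26 (limma adjusted p = 0.0274), and 1419848_x_at differed by 1.03 (limma adjusted p = 0.0517). With the mean of all its probe sets, Tlr7 was called, at 0.89. In the fit of all probe sets, 4 of the 16 probe sets of the 10 genes were called, against 11.3% of all 34945.

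Tlr9, the receptor for unmethylated CpG DNA, gave 6.13 and 6.07 on the unstimulated NOD arrays, 6.65 and 6.56 with PGN, 6.12 and 5.83 in unstimulated NOD.Idd3 cells and 6.51 and 6.27 with PGN. The arrays with PGN were all above those without. The averaged difference of 0.46 ± 0.15 did not pass (limma adjusted p = 0.0844). It was called with the replicate block (limma adjusted p = 0.0443) and after a further quantile normalisation, at 0.53. The unstimulated values lay below the median gene, and whether Tlr9 was above background was not tested, so no fold is given.

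Tlr13, which detects bacterial ribosomal RNA, gave 12.69 and 12.92 on the unstimulated NOD arrays, 12.75 and 12.08 with PGN, 12.50 and 12.57 in unstimulated NOD.Idd3 cells and 12.58 and 11.66 with PGN. Replicate 2 with PGN was the lowest array in both strains, while replicate 1 lay among the unstimulated arrays. The averaged difference was -0.40 ± 0.24 (limma adjusted p = 0.342).

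Tlr3, the receptor for double-stranded RNA, gave 6.08 and 6.07 on the unstimulated NOD arrays, 5.71 and 5.54 with PGN, 7.66 and 6.08 in unstimulated NOD.Idd3 cells and 6.17 and 5.87 with PGN. Replicate 1 of the unstimulated NOD.Idd3 cells stood apart from the other 7 arrays. The averaged difference of -0.65 ± 0.30 did not pass (limma adjusted p = 0.229). Without replicate 2 of the unstimulated NOD.Idd3 cells, which leaves the high array alone in its group, it was -1.04 and was called (limma adjusted p = 0.0166). The other Tlr3 probe set, 1422781_at, was dim, at 3.05 to 3.97, and differed by 0.02.

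The 4 PGN arrays were all above the 4 unstimulated ones for 4 of the 10 genes (Tlr1, Tlr2, Tlr7 and Tlr9), against 8.60% of all genes. They were all below for 2 (Tlr5 and Tlr8), against 9.41%, and overlapped for the other 4. Tlr1 and Tlr6, adjacent on chromosome 5, both had positive differences, whereas Tlr7 and Tlr8, adjacent on the X chromosome, had opposite ones, 0.54 and -1.63. Over the 8 arrays Tlr1 and Tlr6 were correlated at 0.94, Tlr1 and Tlr9 at 0.96 and Tlr5 and Tlr8 at 0.79, and Tlr2 and Tlr8 at -0.89. These values describe 8 arrays that share the PGN and replicate differences, and they are not tests.

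Tlr12, a further mouse Toll-like receptor gene, lay between 5.82 and 6.40 on its highest probe set and did not pass, with an averaged difference of 0.11 ± 0.17 (limma adjusted p = 0.758). Its other probe set, 1437931_at, differed by 0.29 (limma adjusted p = 0.413). Tlr11 was not analysed here.

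The genes most like Tlr5 over the 8 arrays, by Pearson correlation among all genes, were Fads1, a fatty acid desaturase, Dab2ip, a Ras GTPase-activating protein, and Abcd2, a peroxisomal fatty acid transporter, each at 0.99. Their averaged differences with PGN were -2.12, -1.42 and -2.37. For Tlr8 the nearest were Rbm12b1, an RNA-binding protein, Ifngr1, a chain of the interferon gamma receptor, and Mib2, a ubiquitin ligase, each at 0.98, with differences of -0.67, -0.96 and -0.44. These genes were selected for that likeness among 18193, so their values are a description.

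No Toll-like receptor gene differed between NOD.Idd3 and NOD cells by the test, and no gene of the array did: 0.00% were called unstimulated, with PGN, averaged over conditions, and for the difference in PGN effect. At an unadjusted p under 0.05 there were 611 genes unstimulated (3.36% of all genes) and 984 with PGN (5.41%). There were 1175 averaged (6.46%) and 314 for the difference in PGN effect (1.73%). The replicate block gave 27 genes for the averaged strain difference, none of the 10 among them. Tlr8 was the 1 member of 10 with an unadjusted p under 0.05 in the averaged strain difference, against 6.46% of all genes. Its difference was 0.85 ± 0.28 (95% interval 0.20 to 1.5; limma adjusted p = 0.712). With PGN alone it was 1.21 ± 0.40 higher in NOD.Idd3 cells (limma adjusted p = 0.851). The averaged strain difference was 0.59 ± 0.30 for Tlr3, -0.36 ± 0.20 for Tlr6 and -0.28 ± 0.24 for Tlr13. It lay between -0.17 and 0.08 for the other 6 genes. Tlr2 lies on chromosome 3 with the Idd3 gene Il2, separated from it by 176 protein-coding genes, and its averaged strain difference was -0.11 ± 0.14 (95% interval -0.44 to 0.21).

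The PGN effects of the 10 genes differed between strains by -0.62 to 0.74, and the limma adjusted p was 1.00 for each. The largest of these in size were those of Tlr8, at 0.74 ± 0.57, Tlr4, at -0.62 ± 0.49, and Tlr3, at -0.40 ± 0.61. For Tlr5 the difference was 0.16 ± 0.51 (95% interval -1.0 to 1.3), and for Tlr2 it was 0.09 ± 0.29 (-0.57 to 0.75). With 2 arrays per group these intervals are wide, and a p above the threshold does not show that the strains respond alike.

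**Figure D3:**
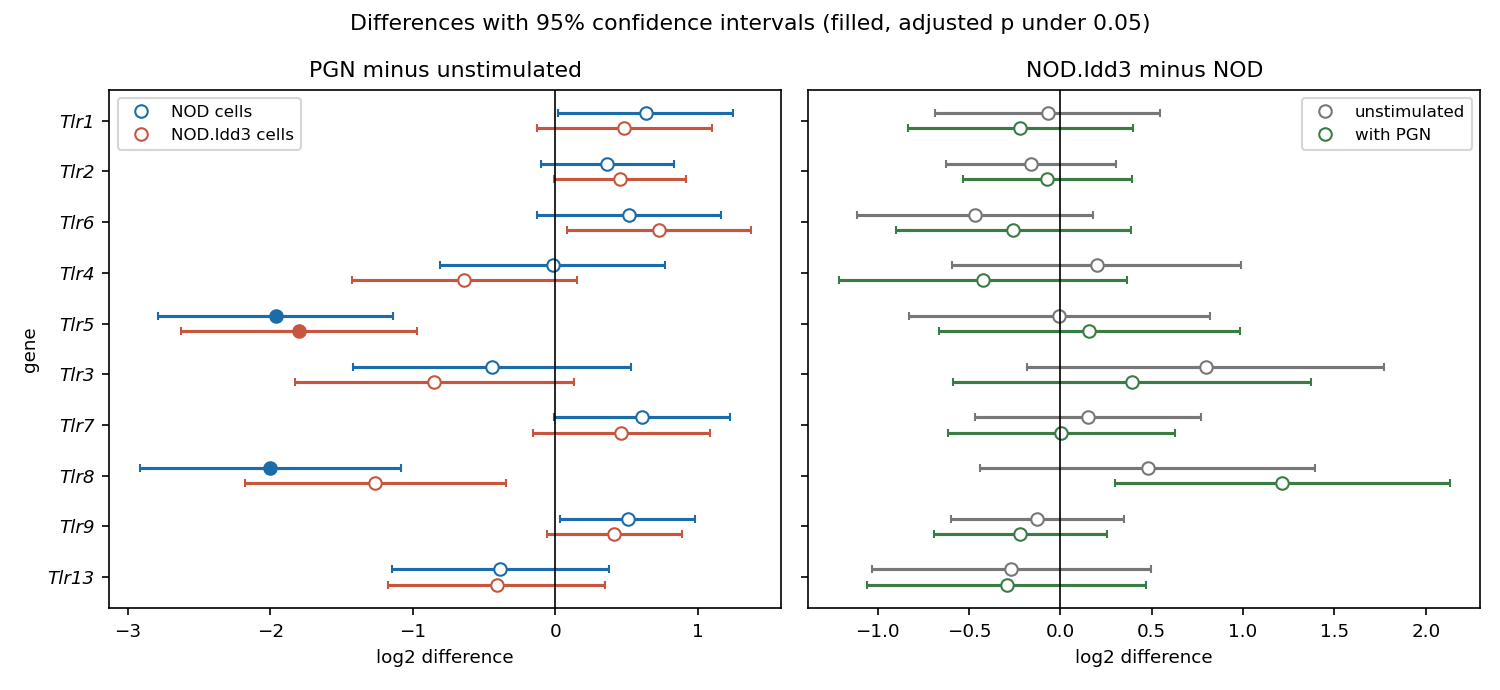
Log2 differences (horizontal axes) with 95% confidence intervals for the 10 genes (vertical axis), PGN minus unstimulated in each strain on the left and NOD.Idd3 minus NOD in each condition on the right. Filled points, with adjusted p under 0.05, are Tlr5 in both strains and Tlr8 in NOD, and no strain difference is filled.

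Of 87 listed genes that work with these receptors or also sense peptidoglycan, 73 were measured. With PGN averaged over strains, 12 of them rose, 9 fell and 52 did not pass (limma adjusted p under 0.05, the rule for every list count given here), against 4.86% of all genes higher and 6.40% lower. Their median difference was 0.19, against 0.05 over all genes. The lists were ordered by the path of the signal, from ligand capture at the membrane to the transcription factors and the brakes on the pathway.

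Among 8 lipid and ligand co-receptors, 1 fell and none rose. Ly86, which encodes the MD-1 partner of a Toll-like receptor homologue, fell by 0.93 ± 0.22 (limma adjusted p = 0.0311). Among 12 measured genes for endosomal chaperones and processing, 3 fell and none rose. Cnpy3, a chaperone needed for the folding of several Toll-like receptors, fell by 1.33 ± 0.15 (limma adjusted p = 0.00117), from means of 10.43 and 10.19 in unstimulated NOD and NOD.Idd3 cells to 8.93 and 9.04. Unc93b1, which carries the nucleic acid sensing receptors to endosomes, fell by 0.62 ± 0.14 (limma adjusted p = 0.0197). Slc15a4, an endolysosomal peptide transporter, was the third to fall.

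Of 5 adaptors, Ticam1 (TRIF) rose by 0.85 ± 0.22 (limma adjusted p = 0.0395) and Tirap, the bridging adaptor of TLR2 and TLR4, fell by 0.57 ± 0.15 (limma adjusted p = 0.0481). Myd88, the adaptor shared by most of the receptors, differed by 0.43 ± 0.14 and did not pass (limma adjusted p = 0.0835). Of 15 kinases and ubiquitin ligases, 4 rose and 1 fell. Ikbke rose by 1.50 ± 0.30 and Irak2, a kinase of the MyD88 complex, by 1.49 ± 0.18, and Tab1 fell by 0.54 ± 0.15.

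Of 13 transcription factors, 4 rose and none fell. Rel, an NF-kB subunit, rose by 1.82 ± 0.14 and Irf4, an interferon regulatory factor, by 1.67 ± 0.36. Of 14 inhibitors, 2 rose, namely Socs1, a suppressor of cytokine signalling, by 1.32 ± 0.23 and Tnfaip3, the deubiquitinase A20, by 1.30 ± 0.20. A further 2 inhibitors fell, Sigirr by 0.73 ± 0.20 and the deubiquitinase Cyld by 0.58 ± 0.13. Of 11 genes listed as other peptidoglycan sensors, 6 were measured, and Nod2 was among those not measured. Nlrp3, an inflammasome sensor, rose by 1.69 ± 0.34 and Pglyrp1, a secreted peptidoglycan recognition protein, fell by 0.84 ± 0.15.

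Leaving out 1 array at a time kept between 8 and 15 of these 21 calls. Cnpy3, Irak2, Nfkb2, Pglyrp1, Rel, Socs1 and Tnfaip3 kept their calls in every such fit. Of the other genes named above, Cyld, Ly86, Sigirr, Ticam1, Tirap and Unc93b1 lost their calls in most of these fits. Slc15a4 and Tab1 lost theirs in every one. Irf4 kept its call in 4 of the 8 fits, and Ikbke and Nlrp3 each kept theirs in 7. The fewest, 8, remained without replicate 2 of the unstimulated NOD.Idd3 cells. The replicate block kept all 21, the RR1 suffix as a term kept 12 and centring each array on its median kept 15, and no sign changed in these fits.

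**Figure D4:**
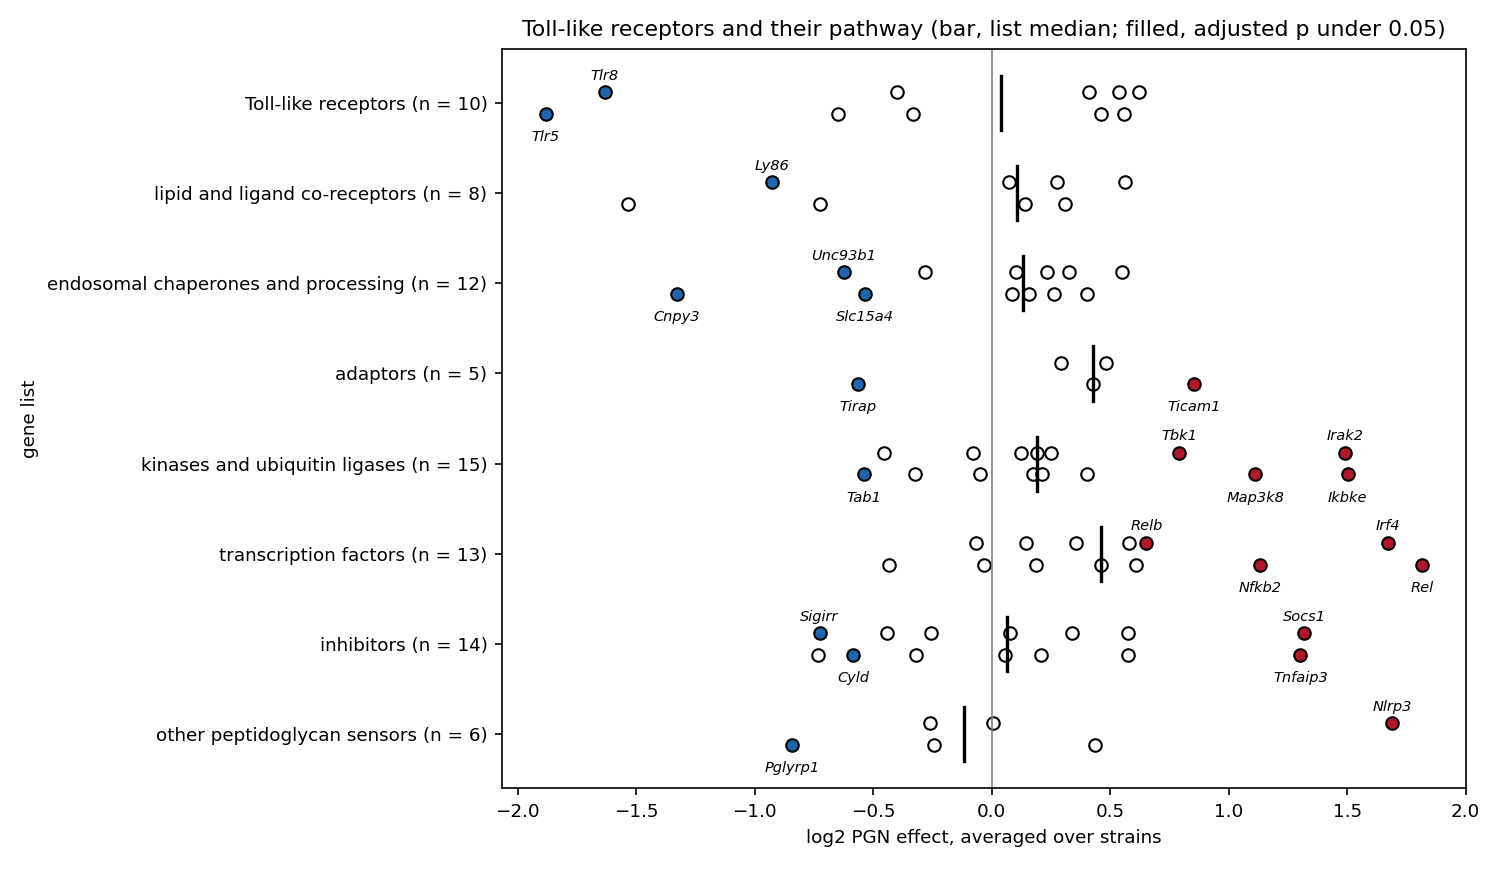
Averaged PGN effect (horizontal axis, log2 difference) of each measured gene of the Toll-like receptors and 7 pathway lists (vertical axis), with a bar at the list median. Filled and named genes have an adjusted p under 0.05, with Tlr5, Tlr8 and 9 pathway genes below 0 and 12 pathway genes above 0.

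None of the 73 pathway genes was called for the averaged strain difference. The smallest unadjusted p was that of Irf4, at -0.99 ± 0.36 (limma adjusted p = 0.733). The genes with the smallest p in the other lists were Lbp at 0.66, Nod1 at -0.54, Pik3ap1 at -0.28, Hsp90b1 at -0.26, Atf3 at -0.25 and Irak2 at -0.24. The median of the 73 was -0.07, against -0.03 over all genes.

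Of 71 measured marker genes of 10 cell groups, 1 was called higher and 8 lower with PGN (limma, averaged over strains), and 62 did not pass. Over all genes, 4.86% were called higher and 6.40% lower. Of the 71 differences 27 were positive and 44 negative (median -0.10, against 0.05 over all genes). Whether the mix of cell types changed was not tested. Ccr7, listed for dendritic cells, differed by 1.64. Those called lower were Cx3cr1 of the monocyte list, at -2.66, Cxcr2, Mmp9 and Mmp8 of the neutrophil list, at -1.79, -1.74 and -1.16, and Cd3d of the T cell list, at -1.48, with Siglecf, Vsig4 and Prf1 at -1.16, -0.67 and -0.52. The other 5 of 8 measured neutrophil markers, S100a8 and S100a9 among them, differed by -0.46 to -0.08 and were not called. The other 5 of 6 measured T cell markers were not called either, with Cd3g at -0.92 and Cd28, Cd4, Cd3e and Cd8a between -0.26 and -0.02.

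Summed linear intensities of a list add probe sets of different brightness and follow the brightest. The T cell sum was 3611 to 6243 on the unstimulated arrays and 1611 to 2473 with PGN, and most of it was Cd3d. Without Cd3d it was 482 to 668 and 387 to 463. The neutrophil sum was 105544 to 141662 unstimulated and 96355 to 101993 with PGN, without overlap, like the T cell sum. The monocyte sum, 24276 to 29255 and 27655 to 33676, overlapped.

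Between strains no marker was called in the main fit. The macrophage sum was 12010 to 14425 in NOD and 7463 to 9185 in NOD.Idd3 cells. Of its 10 measured markers, 9 had negative averaged strain differences (median -1.45, against -0.03 over all genes). The conventional dendritic cell sum was 7994 to 9967 in NOD and 3832 to 7544 in NOD.Idd3, and 7 of 8 differences were negative (median -0.40). The B cell sums overlapped, at 1541 to 5456 and 771 to 1612, and 8 of 9 differences were negative (median -1.10). On the log2 scale the 3′ control probe set exceeded the 5′ one by 0.88 to 1.16 in NOD and 0.72 to 0.80 in NOD.Idd3 for Gapdh. For Actb it did so by 0.43 to 0.58 and 0.22 to 0.46, with overlap. The part of these differences in the values of the Toll-like receptor genes was not tested.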

How the data were processed

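Groups, replicate numbers and doses come from the labels. The authors' deposited values are RMA intensities on a linear scale (RMA per the submitters' processing notes; software and chip definition not given in the sources used here), for 45101 probe sets, from 3.97 to 42906 (median 44.0). Since log2 values had been assumed in planning, the log2 of each intensity was taken. Control probe sets (64), 9160 without a symbol and 932 with several were left out. Of the other 34945, 34741 matched RefSeq GRCm38.p6. The probe set of highest mean stood for a gene, giving 18193 genes.

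Differences were contrasts of the 4 group means in limma 3.58.1 (R 4.3.3), with Benjamini-Hochberg adjustment over all genes at 0.05 and 4 residual and 4.69 prior degrees of freedom. The fit was tested on simulated data. Replicate 1 arrays share a date in the labels' array names, and the replicate 1 minus 2 differences correlated across genes at 0.17 to 0.42 in all 6 pairs of groups, so the numbers were taken to pair the arrays. The main fit has no such block. Within groups, arrays correlated at 0.985 to 0.991. The number of arrays limits the precision.

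The members and lists were chosen with earlier results of these data known. Named were all members with their probe sets, Tlr12, up to 2 largest rises and 2 largest falls of each list (for the strain difference the smallest p), the 3 genes most like each called member, Itgam, and the highest marker of a list. Other markers, and Myd88, Nfkb2 and Slc15a4, were added after their values were seen. The 19 alternatives are in the closing section.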

Additional observations from a re-analysis of the deposited data

How the results depend on the processing

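Under 19 alternatives, 1271 of 1293 member values kept their side of the threshold, 13 lost a call, 9 gained one and 0 called values reversed. A further 66 changed sign with neither value called. Only a value called in the main fit can lose a call, and no member was called there for a strain comparison. The 1271 are thus mostly values not called in either fit and do not measure how firm the calls are. All 13 losses were of single-strain PGN calls, 8 in NOD and 5 in NOD.Idd3. With the replicate block the averaged PGN effect had 3082 genes called instead of 2049, with 6 members instead of 2. The NOD effect had 1586 instead of 717, the NOD.Idd3 effect 1207 instead of 572, and the averaged strain difference 27 instead of 0. Testing every probe set gave 3933, 1403 and 1058 called for the averaged, NOD and NOD.Idd3 effects. Array weights gave 410 in NOD and 994 in NOD.Idd3, the RR1 suffix as a term gave 235 in NOD.Idd3, and a fit of the NOD arrays alone gave 416. The 40th-percentile filter removed Tlr8 and left 1 member called in the averaged effect and 1 in NOD. In NOD, array weights and the fit of NOD arrays alone also left 1 member.

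Leaving out 1 array at a time gave 1111 to 2139 genes for the averaged effect, 77 to 876 for NOD and 56 to 624 for NOD.Idd3, with 0 to 2 members called in NOD and 0 to 1 in NOD.Idd3. Without the _x_at and _s_at probe sets the averaged Tlr3 difference was 0.02, since another probe set then stands for the gene. For the other changes the cause was not tested. Arrays give no read depth, and with 2 per group small differences cannot be resolved.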
